A study of Mus musculus with 22 samples.

Results

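The choroid plexus and the lining of the brain ventricles are described here through 10 genes in bulk tissue of the mouse anterior cingulate cortex (ACC), chosen by name as markers of what a dissection took in, out of 37786 genes in the count table. The 6 choroid plexus genes were Ttr, Kl, Folr1, Clic6, Aqp1 and Otx2, and the 4 genes of the ventricular lining were Foxj1, Ccdc153, Tmem212 and Rarres2. Tissue came from 22 adult male wild-type C57BL/6J mice. All of them carried an AAV5 vector in the basolateral amygdala (BLA), in which the CaMKIIa promoter drives channelrhodopsin fused to EYFP in excitatory neurons, and an optic fiber implanted in the ACC on one side. In the 10 stimulated mice blue light was delivered to BLA terminals over 9 sessions, whereas the 12 control mice went through the same handling with the light off, and both sides of the ACC were collected after the last session. Libraries carried numbers from 1 to 23, with no library 7, and formed a run from 1 to 11 (6 controls, 4 stimulated) and a run from 12 to 23 (6 controls, 6 stimulated). The labels do not say what the runs stand for. The study's methods mention 2 batches of animals made for sequencing, whose assignment to mice was not used here, and whether the runs are these batches was not tested. Total counts ranged from 23090483 to 43668462 per library.

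The choroid plexus is a vascular fold inside the ventricles whose epithelium secretes cerebrospinal fluid. It is known for an extreme output of transthyretin, the carrier of thyroid hormone and retinol. Ependymal cells line the ventricle walls and beat motile cilia that move this fluid. Neither tissue belongs to the cortex, although the lateral ventricles lie beneath the cingulate region, so their transcripts are expected at low levels in a clean ACC sample. Several of these genes are also made elsewhere at low levels, such as Kl in neurons and Aqp1 in vessels and glia.

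The 10 genes lay on 9 chromosomes (GENCODE M21 on GRCm38, the assembly called mm10). Ttr is at chr18:20665280-20674321, Kl at chr5:150952607-150993817, Folr1 at chr7:101858331-101870788, Clic6 at chr16:92485736-92541243 and Aqp1 at chr6:55336432-55348555. Otx2 is at chr14:48657677-48673819, Foxj1 at chr11:116330704-116335399, Ccdc153 at chr9:44240676-44247306, Tmem212 at chr3:27866066-27896368 and Rarres2 at chr6:48569696-48572789. The libraries did not mark strand, so reads from exons shared with another gene cannot be assigned to one of them. Rarres2 shares 892 of its 2656 exonic bases with Lrrc61 on the opposite strand, and its values are uncertain for that reason. Otx2 shares 154 of 4221 exonic bases with Otx2os1 on the opposite strand and 168 with Gm49154 on the same strand. Folr1, Clic6 and Tmem212 overlap other genes (Anapc15, 2410124H12Rik and Gm26040) but share 0 exonic bases with them.

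Promoter sequence was available from RefSeq (GRCm38.p6) for 5 of the 10 genes, in 8 promoters, 4 of which belong to Otx2. The 250 bases before the start of Ccdc153 and Tmem212 are shown because these cilium-associated genes had their highest level in the same mouse. Capitals mark GTTGCC, the core of the X-box bound by RFX factors of ciliated cells.

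Ccdc153, chr9:44240427-44240676, plus strand: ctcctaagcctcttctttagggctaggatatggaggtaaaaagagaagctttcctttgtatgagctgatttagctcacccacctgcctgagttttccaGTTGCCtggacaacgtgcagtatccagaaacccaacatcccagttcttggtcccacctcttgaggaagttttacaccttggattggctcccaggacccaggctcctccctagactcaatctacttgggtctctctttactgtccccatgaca

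Tmem212, chr3:27896369-27896618, minus strand: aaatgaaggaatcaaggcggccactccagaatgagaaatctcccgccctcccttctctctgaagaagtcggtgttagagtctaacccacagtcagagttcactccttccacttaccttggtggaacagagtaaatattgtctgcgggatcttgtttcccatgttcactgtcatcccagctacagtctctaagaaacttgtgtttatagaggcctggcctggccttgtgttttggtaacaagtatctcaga

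The Ccdc153 promoter held GTTGCC on its own strand from 152 to 147 bases before the start, and the Tmem212 promoter did not hold these letters on either strand. GTTGCC was found in 4 of the 8 promoters, of Aqp1, Ccdc153 and Otx2 (2 promoters that overlap), against 10.4% of 32851 promoters of the same length. TAATCC, the bicoid-type motif bound by OTX2, was found in 1 of 8, an Otx2 promoter, against 6.25% of all promoters. The forkhead motif TGTTTAC was in 0 of 8, against 3.17%. None of the 3 motifs overlaps another in these promoters, and a match is a description of letters only.

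Levels were low for all genes but Ttr, and were expressed as CPM, the reads of a gene relative to all reads of its library, after TMM scaling. Per kilobase of exon, the median over 22 mice was 6.91 CPM for Ttr, 0.991 for Rarres2, 0.344 for Kl, 0.243 for Foxj1, 0.199 for Clic6, 0.137 for Ccdc153, 0.130 for Aqp1, 0.0686 for Folr1, 0.0379 for Tmem212 and 0.0275 for Otx2. The ranges over mice of all neighbours in this order overlapped. A count of 0 allows a level of up to 3 counts, or 0.0699 to 0.137 CPM depending on the library, for counting error only. At this depth Tmem212 had no count in 10 mice, Otx2 in 4, Folr1 in 2 and Ccdc153 in 1. In all, 6 genes passed a minimum of 10 counts in at least 10 mice and entered the test across 17524 genes, namely Ttr, Kl, Clic6, Aqp1, Foxj1 and Rarres2. The other 4 genes were compared by permutation tests of their log2 CPM (prior count 2). As a check of the tissue, 9 genes of cortical excitatory neurons together gave between 1618 and 3658 CPM in each library.

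Most of these genes had a large excess in single control libraries. Control 3 held the highest Ttr and Folr1, control 9 the highest Foxj1, Ccdc153, Tmem212 and Aqp1, and control 12 the highest Clic6 and Otx2. Relative to the median of all 22 mice, the highest library was 15.5 times higher for Ttr, 15.0 times for Folr1, 14.3 times for Otx2, 8.82 times for Ccdc153, 7.22 times for Clic6, 6.68 times for Foxj1 and 5.17 times for Aqp1. No ratio is given for Tmem212, whose median was 1 count and whose highest level was 66 counts. The same ratio had a median of 1.56 over all genes tested. By contrast, Kl reached 2.71 times its median, in stimulated 7, and Rarres2 2.01 times, in control 2. Within runs, the standard deviation of log2 CPM was 1.47 for Ttr, 1.16 for Aqp1 and 0.99 for Clic6, at percentiles 99.94, 99.67 and 98.73 of all genes tested, whose median was 0.25. It was 0.77 for Foxj1, 0.52 for Kl and 0.42 for Rarres2.

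**Figure D1:**
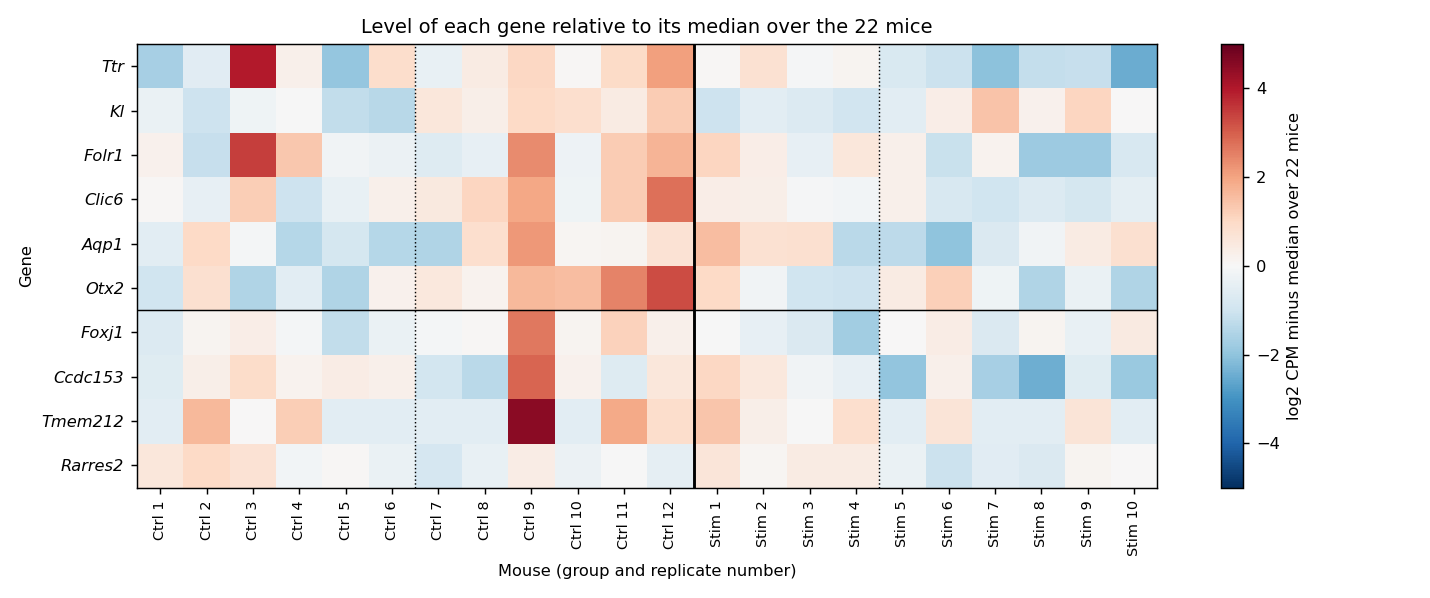
Level of each of the 10 genes in each of the 22 mice, as log2 CPM minus the gene's median over all mice (color, scale from -5 to 5). Columns are mice, controls left and stimulated right of the thick line, with a dotted line between library numbers 1 to 11 and 12 to 23, and the horizontal line divides choroid plexus genes from those of the ventricular lining. The darkest cells are Ttr and Folr1 in control 3, Tmem212, Ccdc153 and Foxj1 in control 9, and Otx2 and Clic6 in control 12.

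The 3 libraries differed in which genes were high. Control 3 had 4480 Ttr counts, a level of 127 CPM, and 83 Folr1 counts, the receptor that carries folate into the cerebrospinal fluid, but it had 0 counts of Otx2, which allows up to 0.0853 CPM. Control 9 had 142 counts of Foxj1, the master regulator of motile cilia, 82 of Ccdc153 and 66 of Tmem212, whereas no other library exceeded 7 Tmem212 counts. Its Ttr level was 16.9 CPM, within the range of the other controls. Control 12 had 167 counts of Clic6, a chloride channel family member of secretory epithelia, and 49 of Otx2, the homeobox factor that maintains choroid plexus identity. Its Ttr level of 34.5 CPM was second to control 3.

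Other marker lists were examined in these libraries. In control 3, 2 of 13 tested genes of a further choroid plexus list had their highest level of all mice (1500015O10Rik and Sostdc1), as had 2 of 35 ependymal and cilium genes (Capsl and Spag6l). The share over all genes tested was 5.63%. In control 9 the counts were 2 of 13 (Enpp2 and Prlr) and 5 of 35 (Armc4, Ccdc40, Cfap126, Cfap43 and Dnali1), against 5.99%, and all 8 oligodendrocyte genes were also highest there. Their sum was 19639 CPM in control 9, while the other 21 libraries ranged from 2337 to 14451 CPM. Summed over all 44 genes of the ependymal and cilium list, tested or not, the level was 149 CPM in control 9 and 147 CPM in control 3. These were ranks 16 and 18 of 22, so that the sum was not high in either. A sum of CPM is set mostly by its most abundant genes. The relations with lists given below use another measure, the mean log2 CPM of the tested genes. Over 21 further choroid plexus genes the sums were 608 CPM in control 9, the highest of all mice, and 409 CPM in control 3, at rank 10. Control 5, with a Ttr level of only 2.07 CPM, still had a sum of 340 CPM. How much of these sums comes from cells outside the choroid plexus was not tested. Control 12 was at rank 5 for the ependymal and cilium list (167 CPM) and at rank 4 for the further choroid plexus list (482 CPM). In control 12 the counts were 2 of 13 (Calml4 and F5) and 2 of 35 (Dnaic2 and Drc7), against 1.27%. Genes of striatal projection neurons, septum, leptomeningeal fibroblasts and cortical excitatory neurons were highest in these 3 libraries in 0 cases. Whether the tissue collected differed between these mice was not tested, and in bulk tissue a larger number of cells of one type cannot be told apart from more RNA per cell.

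The main comparison asked whether these genes differed between stimulated and control mice. All 6 tested genes had a lower fitted level in stimulated mice, against 47.5% of all genes tested, and 2 of them, Ttr and Clic6, had an unadjusted p under 0.05 (edgeR quasi-likelihood test), against 3.61% of all genes in either direction and 2.61% in this one. None passed the adjustment over 17524 genes, where edgeR called 0% of all genes. The DESeq2 Wald test gave 2 members at an unadjusted p under 0.05, against 4.18% of all genes, and limma voom 2, against 10.6%, and both gave 0 members after adjustment. In edgeR, 5 of 10 members (Ttr, Clic6, Folr1, Otx2 and Tmem212) had an unadjusted p under 0.05 with no minimum on counts, against 6.31% of all genes, 1 of 3 with at least 10 counts in every mouse, against 3.04%, and 0 of 6 with the replicate number as a block, against 7.37%. The block covered replicates 1 to 10 only, so control 11 and control 12, the highest for Clic6, were left out. For replicates 5 and 6 it set mice of different runs against each other. Which of these changes removed the calls was not tested.

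**Figure D2:**
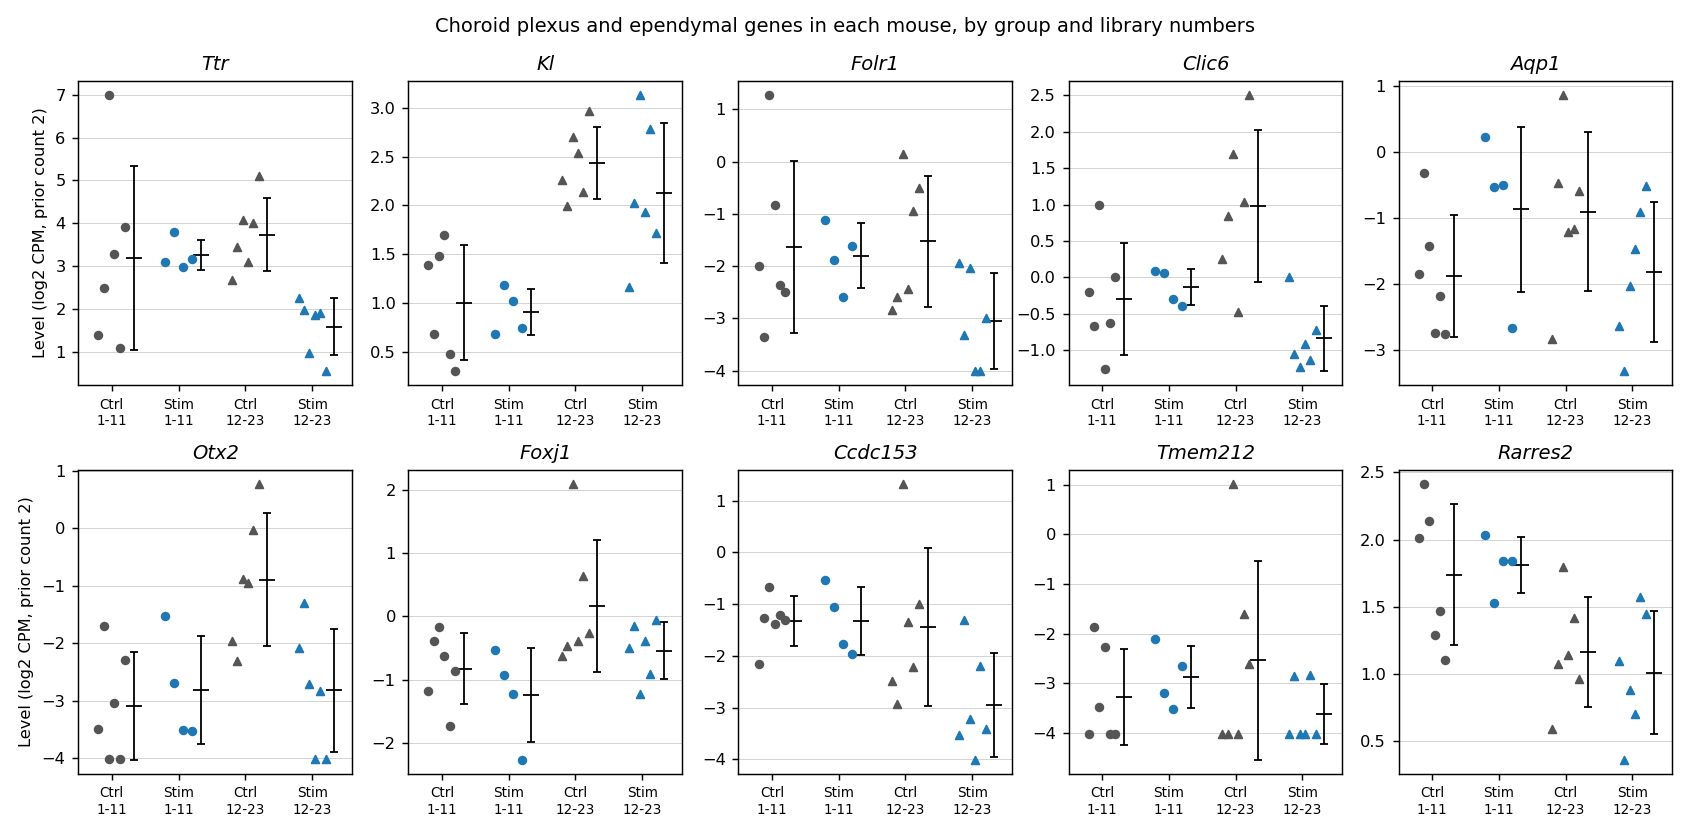
Level of the 10 genes (log2 CPM, prior count 2) in every mouse, 1 panel per gene with its own axis. Gray marks controls and blue stimulated mice, circles library numbers 1 to 11 and triangles 12 to 23, and the bar beside each group gives its mean ± SD (n = 6, 4, 6 and 6). In library numbers 12 to 23 all Ttr values of stimulated mice lie below those of controls, whereas in 1 to 11 the groups overlap.

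Ttr ranged from 2.07 to 127 CPM in controls (median 10.3, n = 12) and from 1.41 to 13.8 CPM in stimulated mice (median 4.32, n = 10). The groups overlapped. The log2 fold change was -1.86 ± 0.59 (SE), with an unadjusted p of 0.0044 and an edgeR adjusted p of 0.9998. Leaving out control 3 brought the estimate to -0.98 on the log2 scale, with an unadjusted p of 0.0313 (edgeR). With all 22 mice, the difference of mean log2 CPM was -1.20, with a permutation p of 0.0505 (two-sided, 100000 resamples).

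Within library numbers 12 to 23, Ttr ranged from 6.37 to 34.5 CPM in the 6 controls (median 13.4) and from 1.41 to 4.75 CPM in the 6 stimulated mice (median 3.64). Every stimulated mouse lay below every control. Such a separation was seen for 0.194% of all genes tested. The difference of mean log2 CPM was -2.14, with an exact permutation p of 0.0022, the smallest that 924 splits can give in a two-sided test. In the edgeR fit the log2 fold change was -2.30 ± 0.37, with an unadjusted p of 1.3e-05 and an adjusted p of 0.2205. Without control 9 and control 12 it was -1.72 ± 0.30 (unadjusted p = 5.8e-05, edgeR adjusted p = 0.5747).

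Within library numbers 1 to 11, the 6 controls had 2.07, 2.56, 5.56, 9.64, 15.0 and 127 CPM of Ttr, and the 4 stimulated mice had 7.87, 8.55, 8.94 and 13.8 CPM. The stimulated values fell inside the range of the controls, of which control 3 was by far the highest. The log2 fold change was -1.45 ± 0.96 with control 3 and 0.50 ± 0.47 without it. The difference of mean log2 CPM was 0.07 with control 3 (exact permutation p = 0.981) and 0.83 without it (exact permutation p = 0.246), so that the direction in this run rested on that library and on the scale. The difference between the runs in the effect of group on Ttr was -0.80 ± 1.04 on the log2 scale (unadjusted p = 0.451, edgeR adjusted p = 0.8892). Without control 3 it was -2.76 ± 0.64 (unadjusted p = 0.0003, edgeR adjusted p = 0.5574).

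Clic6 followed a like course. It ranged from 0.353 to 5.63 CPM in controls (median 1.04) and from 0.365 to 1.001 CPM in stimulated mice (median 0.622). The stimulated mice stayed within the range of the controls, and the 6 highest values all belonged to controls. The log2 fold change was -1.28 ± 0.40 (unadjusted p = 0.0036, edgeR adjusted p = 0.9998), and -0.92 without control 12, with an unadjusted p of 0.0119. In library numbers 12 to 23 the controls had a median of 1.86 CPM and the stimulated mice 0.443 CPM, the groups overlapped, and the log2 fold change was -2.19 ± 0.44 (unadjusted p = 0.0001, edgeR adjusted p = 0.2634). Without control 9 and control 12 it was -1.40 ± 0.36. In library numbers 1 to 11 the medians were 0.697 and 0.864 CPM and the log2 fold change was -0.003 ± 0.41. The difference between runs in this effect was -2.14 ± 0.63 (unadjusted p = 0.0024, edgeR adjusted p = 0.5454).

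**Figure D3:**
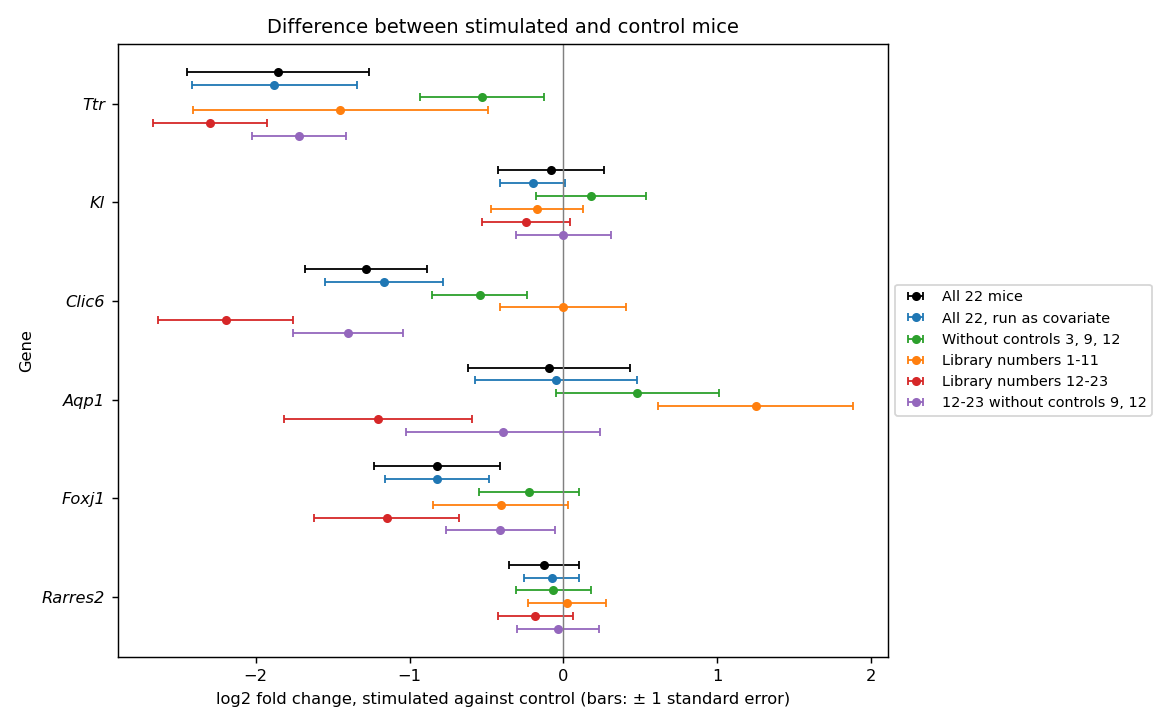
Log2 fold change of stimulated against control mice (x axis, bars ± 1 SE) for the 6 genes tested with edgeR, under 6 choices of mice and covariates given by color. Ttr and Clic6 lie furthest below 0 within library numbers 12 to 23 (-2.30 and -2.19), and Aqp1 lies at 1.25 within 1 to 11 and at -1.21 within 12 to 23.

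Within library numbers 12 to 23 alone, 3 of 6 genes (Ttr, Clic6 and Foxj1) had an unadjusted p under 0.05 in the edgeR fit, against 12.4% of all genes, and within 1 to 11 alone 0 of 6, against 5.56%. Without control 9 and control 12 the count within 12 to 23 was 2 of 6 (Ttr and Clic6), against 8.14%, and without control 3 that within 1 to 11 was 0 of 6, against 4.72%. Without control 3, control 9 and control 12, the edgeR test left 0 of the 6 genes at an unadjusted p under 0.05, against 2.27% of all genes. Ttr was then at -0.53 ± 0.40 and Clic6 at -0.54 ± 0.31 on the log2 scale. These 3 libraries are all controls and were picked for their high levels, so a smaller difference without them follows in part from that choice. With the run as a covariate and all 22 mice, 3 of 6 genes had an unadjusted p under 0.05, against 11.5% of all genes, namely Ttr (-1.88 ± 0.53), Clic6 (-1.17 ± 0.38) and Foxj1 (-0.82 ± 0.34). Their edgeR adjusted p lay between 0.31 and 0.37, and with the run as a covariate but without the 3 libraries the count was 0 of 6, against 8.42%.

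Klotho, encoded by Kl, is a membrane protein of the choroid plexus that serves as coreceptor for FGF23. Its level ranged from 1.17 to 7.75 CPM in controls (median 3.55) and from 1.54 to 8.70 CPM in stimulated mice (median 2.72). The groups overlapped over nearly their whole range, and the log2 fold change was -0.08 ± 0.34 (unadjusted p = 0.816, edgeR adjusted p = 0.9998). Aqp1, the water channel of the choroid plexus, ranged from 0.0781 to 1.76 CPM in controls (median 0.341) and from 0.0382 to 1.11 CPM in stimulated mice (median 0.385). The groups overlapped, with a log2 fold change of -0.09 ± 0.53. It was 1.25 ± 0.63 in library numbers 1 to 11 and -1.21 ± 0.61 in 12 to 23. The difference between these effects was -2.41 ± 0.94 (unadjusted p = 0.0169, edgeR adjusted p = 0.5695), and the estimate over all mice rose above 0, to 0.35, without control 9.

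Folr1 and Otx2 did not reach the minimum on counts. Folr1 ranged from 0.0352 to 2.36 CPM in controls (median 0.161) and from 0 to 0.400 CPM in stimulated mice (median 0.143). The groups overlapped and the difference of mean log2 CPM was -0.97 (two-sided permutation p = 0.0794). Otx2 ranged from 0 to 1.65 CPM in controls (median 0.169) and from 0 to 0.344 CPM in stimulated mice (median 0.0849), with a difference of -0.83 (permutation p = 0.153). In the edgeR fit with no minimum on counts, the log2 fold change was -1.67 ± 0.64 for Folr1 (unadjusted p = 0.0142, adjusted p = 0.6484) and -1.66 ± 0.74 for Otx2 (unadjusted p = 0.0323, adjusted p = 0.6484). Its 4 highest levels were those of control 12, control 11, control 9 and control 10, all of library numbers 12 to 23. In that run the differences of mean log2 CPM were -1.52 for Folr1 (exact permutation p = 0.0455) and -1.93 for Otx2 (exact permutation p = 0.0152). Without control 9 and control 12 they were -0.85 (exact permutation p = 0.1905) and -1.51 (exact permutation p = 0.0667). In library numbers 1 to 11 they were -0.17 and 0.28, and without control 3 that of Folr1 was 0.41, so its direction in this run rested on that library. These p-values are unadjusted and belong to 30 comparisons, of 10 genes over all mice and in each run.

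Of the genes of the ventricular lining, Foxj1 and Rarres2 did not reach an unadjusted p under 0.05 in the main edgeR test, and none of the 4 did in the permutation tests over all mice. With no minimum on counts, Tmem212 had an unadjusted edgeR p of 0.0334 at -2.11 ± 0.94 on the log2 scale (adjusted p = 0.6484), Foxj1 0.0501 and Ccdc153 0.0566. Tmem212 had 66 counts in control 9 and at most 7 in any other library, and it was not fitted without control 9. Foxj1 ranged from 0.239 to 4.25 CPM in controls (median 0.679) and from 0.145 to 0.897 CPM in stimulated mice (median 0.550). Control 9 and control 11, at 1.49 CPM, were above all stimulated mice, and the other 10 controls overlapped with them. The log2 fold change was -0.82 ± 0.41 (unadjusted p = 0.0555, edgeR adjusted p = 0.9998), and -0.29 without control 9. In 7 of 22 fits that each left out 1 mouse, its unadjusted edgeR p was under 0.05, with a lowest value of 0.0294. It was -0.27 with the DESeq2 Wald test and -0.26 with limma voom on all mice, a difference whose cause was not tested. Ccdc153, a coiled-coil gene of ciliated cells, ranged from 0.0693 to 2.45 CPM in controls (median 0.336) and from 0 to 0.629 CPM in stimulated mice (median 0.175). The groups overlapped except for control 9, and the difference of mean log2 CPM was -0.91 (permutation p = 0.0727). Tmem212, a transmembrane gene used as an ependymal marker, ranged from 0 to 1.97 CPM in controls and from 0 to 0.172 CPM in stimulated mice, with 0 counts in 6 controls and 4 stimulated mice (difference -0.41, permutation p = 0.481). Rarres2, which encodes the chemoattractant chemerin, ranged from 1.45 to 5.28 CPM in controls (median 2.49) and from 1.22 to 4.03 CPM in stimulated mice (median 2.74). The groups overlapped, and its log2 fold change was -0.13 ± 0.23 (unadjusted p = 0.578, edgeR adjusted p = 0.9998).

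The oligodendrocyte genes were also compared between the groups. In edgeR all 8 were lower after stimulation (median log2 fold change -0.73), against 47.5% of all genes tested. All 8 had an unadjusted p under 0.05, against 3.61% of all genes, and 0 an adjusted one. The DESeq2 Wald test gave 5 of 8 at an unadjusted p under 0.05 with a median of -0.48, against 4.18% of all genes. With limma voom it was 6 of 8 with a median of -0.59, against 10.6%. The median was -1.33 within library numbers 12 to 23, 0.11 within 1 to 11 and -0.41 without the 3 libraries. Their summed level ranged from 3195 to 19639 CPM in controls and from 2337 to 5799 CPM in stimulated mice. In library numbers 12 to 23, the level of Clic6 followed that of the oligodendrocyte genes with a Pearson r of 0.67 (permutation p = 0.0176, adjusted over 48 relations 0.282) and a Spearman rho of 0.85 (permutation p = 0.0008, adjusted 0.019). Without the 2 mice farthest from the median of Clic6, r was 0.81. Both quantities differed between the groups of this run, and within them r was 0.41 in the 6 controls (exact permutation p = 0.385, rho 0.37 with p = 0.497) and 0.71 in the 6 stimulated mice (exact permutation p = 0.0903, rho 0.83 with p = 0.0583). One other of the 48 relations passed the adjustment of rho, that of Foxj1 with the mean log2 CPM of the ependymal and cilium list in the same run, at an r of 0.74 (permutation p = 0.0112, adjusted 0.270) and a rho of 0.86 (permutation p = 0.0007, adjusted 0.019). Within groups its r was 0.69 in controls (exact permutation p = 0.0764, rho 0.83 with p = 0.0583) and 0.82 in stimulated mice (exact permutation p = 0.0333, rho 1.0 with p = 0.0028). In library numbers 1 to 11 the relation of Foxj1 with this list had an r of 0.07 and a rho of 0.05 (permutation p = 0.844 and 0.891), and over 22 mice centred within runs it did not pass the adjustment (r 0.55, rho 0.53, adjusted p = 0.0681 and 0.0760). For Clic6 and the oligodendrocyte genes, r was 0.54 and rho 0.44 in library numbers 1 to 11 (permutation p = 0.106 and 0.204), and 0.65 and 0.76 over 22 mice centred within runs (adjusted over 24 relations 0.0224 and 0.0017). Foxj1 and the oligodendrocyte genes had the largest r of the 48 relations, 0.88 in library numbers 12 to 23 (permutation p = 0.0015, adjusted 0.073), with a rho of 0.41 (permutation p = 0.184) and an r of 0.27 without 2 mice. Centred within runs, r was 0.77 and rho 0.55 for this pair (adjusted 0.0024 and 0.0760). Their part in the differences of Ttr, Clic6 and Foxj1 was not tested.

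For the other lists, counts and medians are given. Of 13 tested genes of the further choroid plexus list, 7 had a lower and 6 a higher level after stimulation (median log2 fold change -0.01, against 0.01 over all genes). With limma voom 10 were lower and 3 higher, at a median of -0.25. Sostdc1, a secreted BMP and Wnt antagonist, had an unadjusted p of 0.0353 at -0.76, and the coagulation factor gene F5 was at -0.77, Calml4 at -0.45 and 1500015O10Rik at -0.32, with larger p. Of 35 ependymal and cilium genes, 15 were lower and 20 higher (median 0.04), and 3 had an unadjusted p under 0.05 in edgeR, against 3.61% of all genes. With limma voom 21 were lower and 14 higher, at a median of -0.05. The 3 genes in edgeR were Cfap44, a gene of the ciliary axoneme, at -0.67 (p = 0.0026), Cfap126 at -0.76 (p = 0.0220) and, in the other direction, Gmnc, which starts the multiciliated cell program, at 0.87 (p = 0.0181), while Pifo stood at -0.59 (p = 0.0728). All p of single genes here are unadjusted edgeR values, and 0 genes of any list passed the adjustment.

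Partners of these genes, such as receptors for chemerin, the retinol carrier Rbp4 and FGF receptors, were lower for 4 and higher for 9 of 13 tested. In edgeR 0 of them had an unadjusted p under 0.05, against 3.61% of all genes. The smallest p belonged to Gpr1, a chemerin receptor, at 0.30, and among the next were Thra and Thrb, the thyroid hormone receptors, at 0.13 and 0.17 on the log2 scale. Median log2 fold changes were 0.29 for 16 leptomeningeal fibroblast genes, 0.09 for 11 striatal, -0.09 for 8 septal and 0.11 for 9 cortical excitatory neuron genes. Of each list 0 had an unadjusted p under 0.05 in edgeR, against 3.61% of all genes. With limma voom 2 of the 9 cortical excitatory neuron genes, both higher, were under 0.05, against 10.6% of all genes. The direction of the leptomeningeal genes turned with the method. Of the 16, edgeR gave 15 higher and 1 lower, whereas limma voom gave 4 higher and 12 lower with a median of -0.18, and the median was -0.03 within library numbers 1 to 11 and 0.30 within 12 to 23. Their summed level was 684 CPM in stimulated 7 and 558 CPM in stimulated 9, and between 114 and 346 CPM in the other 20 mice.

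The runs of library numbers were compared next, with group as a covariate. Of the 6 tested genes, 3 had an edgeR adjusted p under 0.05, 2 of them higher and 1 lower in library numbers 12 to 23. Over all genes tested the shares were 68.1% in either direction, 33.7% higher and 34.3% lower, so that the members' share was no larger than that of all genes. The count was 5 of 10 with no minimum on counts, against 36.3%, and 4 of 6 with the DESeq2 Wald test, against 69%. Kl was higher in library numbers 12 to 23 by 1.38 ± 0.22 on the log2 scale (adjusted p = 3.3e-06), from a median of 1.79 CPM in 1 to 11 to 4.53 CPM. Foxj1 was higher by 1.12 ± 0.34 (adjusted p = 0.0055), with medians of 0.476 and 0.699 CPM. Its level in 12 to 23 was 4.25 CPM in control 9 and 1.49 CPM in control 11, the next highest. No fit of the runs without control 9 was made. Rarres2 was lower by -0.68 ± 0.18 (adjusted p = 0.0015), with medians of 3.52 and 2.06 CPM. The runs overlapped for each of the 3 genes. Ttr (-1.13 ± 0.51, adjusted p = 0.0508), Clic6 (0.55 ± 0.38, adjusted p = 0.201) and Aqp1 (0.21 ± 0.52, adjusted p = 0.734) did not pass. Within the groups the calls were others, with 3 of 6 genes in each, against 57.1% of all genes in controls and 56.6% in stimulated mice. In controls alone Clic6 was higher in 12 to 23 by 1.47 ± 0.48 (edgeR adjusted p = 0.0149), with Kl and Foxj1 also past the threshold, and Aqp1 was at 1.32 ± 0.61 (adjusted p = 0.0747). In stimulated mice alone Ttr was at -1.60 ± 0.27 (edgeR adjusted p = 0.0002), with Kl and Rarres2 also past the threshold, while Clic6 was at -0.68 ± 0.32 (adjusted p = 0.0796), Aqp1 at -1.08 ± 0.63 (adjusted p = 0.160) and Foxj1 at 0.72 ± 0.40 (adjusted p = 0.1365). Of the further choroid plexus genes 7 of 13 passed, 4 higher and 3 lower, and of the ependymal and cilium genes 17 of 35, 4 higher and 13 lower.

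Co-variation over mice was examined within each run, for 90 relations. In library numbers 12 to 23, Ttr and Clic6 had a Pearson r of 0.90 and a Spearman rho of 0.89 over 12 mice (permutation p = 7e-05 and 0.0003, adjusted 0.0063 and 0.0198). Leaving out the 2 mice farthest from the median of Ttr gave an r of 0.91. Because Ttr separated the groups in this run, the relation was also taken within each. It was 0.91 in the 6 controls (exact permutation p = 0.0167, rho 0.94 with p = 0.0167), or 0.92 without 2 mice, and 0.32 in the 6 stimulated mice (exact permutation p = 0.561, rho 0.26 with p = 0.658), or 0.93 without 2 mice. The difference between the groups was not tested. In library numbers 1 to 11 r was 0.69 (permutation p = 0.0400, adjusted 0.212, rho 0.50 with p = 0.144) and fell to 0.14 without 2 mice, so that it rested on them.

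**Figure D4:**
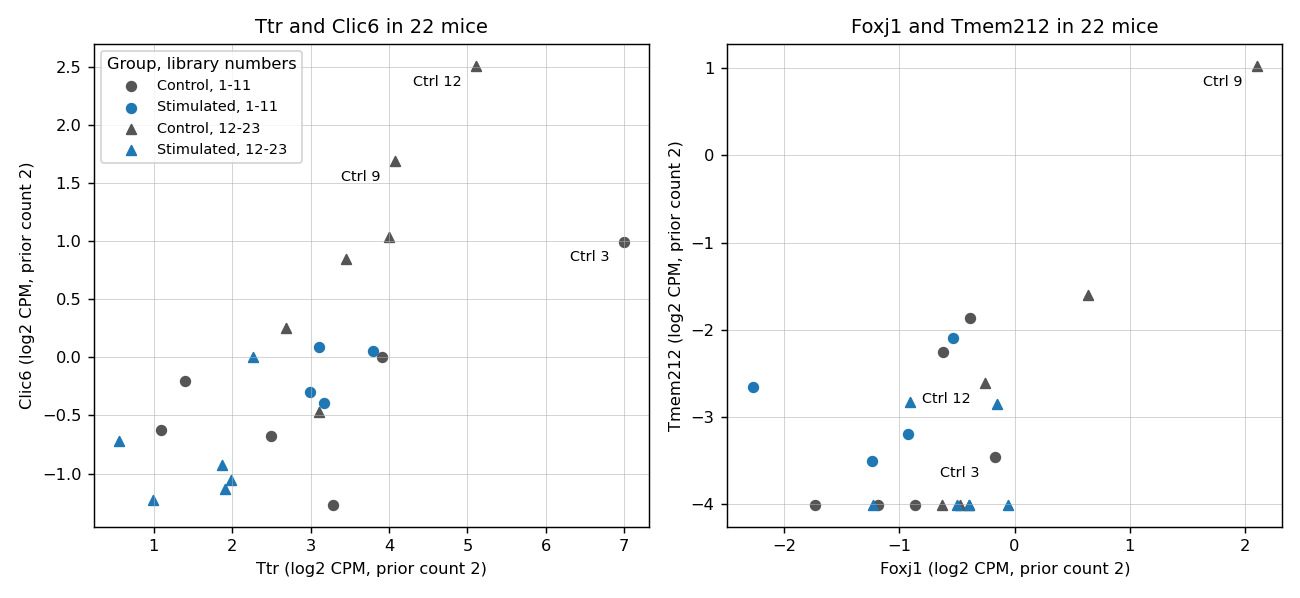
Clic6 against Ttr (left) and Tmem212 against Foxj1 (right) in 22 mice, on axes of log2 CPM (prior count 2), with controls in gray, stimulated mice in blue, circles for library numbers 1 to 11 and triangles for 12 to 23. Clic6 rises with Ttr among the triangles (r = 0.90), with control 3 far to the right, and control 9 stands alone at the upper right for Foxj1 and Tmem212.

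Among choroid plexus genes in library numbers 12 to 23, 2 other relations passed the adjustment of Pearson r. Ttr and Otx2 had an r of 0.86 and a rho of 0.88 (permutation p = 0.0005 and 0.0004, adjusted 0.0234 and 0.0198), with 0.71 without 2 mice. Within groups r was 0.82 in the controls (exact permutation p = 0.0458) and 0.54 in the stimulated mice (exact permutation p = 0.247). Folr1 and Clic6 had an r of 0.82 and a rho of 0.71 (permutation p = 0.0012 and 0.0115, adjusted 0.0348 and 0.109), with 0.63 without 2 mice. Within groups r was 0.79 in the controls (exact permutation p = 0.0694) and 0.47 in the stimulated mice (exact permutation p = 0.361). The fourth was Aqp1 with Rarres2, at an r of 0.80 and a rho of 0.73 (permutation p = 0.0018 and 0.0096, adjusted 0.0410 and 0.109), with 0.56 without 2 mice, and its r was 0.83 in the controls and 0.78 in the stimulated mice (exact permutation p = 0.0597 and 0.0722). Relations among the 3 genes of ciliated cells were weaker without control 9. Foxj1 and Tmem212 had an r of 0.88 and a rho of 0.56 (permutation p = 0.0035 and 0.0651, adjusted 0.0567 and 0.391), which became 0.59 for r and 0.41 for rho without control 9, and an r of 0.14 without the 2 mice farthest from the median of Foxj1. Foxj1 with Ccdc153 had an r of 0.72 (permutation p = 0.0215, adjusted 0.149, rho 0.43 with p = 0.162), and 0.22 without control 9. Ccdc153 and Tmem212 had an r of 0.83 and a rho of 0.75 (permutation p = 0.0038 and 0.0081, adjusted 0.0567 and 0.109), and 0.55 and 0.66 without control 9. Over 22 mice centred within runs, Foxj1 and Tmem212 had an r of 0.73 (permutation p = 0.0008, adjusted over 45 relations 0.0063), with 0.63 without 2 mice. All these values share library depth and rest, for Folr1, Otx2, Ccdc153 and Tmem212, on few counts.

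The genes whose level most resembled that of Ttr over 22 mice, by Spearman rho of log2 CPM centred within runs, were Nfe2l3 (0.76), Hirip3 (0.75), Sema7a (0.74), Clic6 (0.74) and Xrcc3 (0.74). The median rho over all genes tested was -0.02. Clic6 was thus the fourth nearest gene, whereas Foxj1 ranked 344th, Kl 1665th, Aqp1 3088th and Rarres2 6303rd, with a rho of 0.46, 0.28, 0.19 and 0.06. For Foxj1 the nearest were Vmp1 (0.87), Adi1 (0.81), Ubl3 (0.81), Slc25a33 (0.77) and Rnf13 (0.77), none of which was on a choroid plexus or ependymal list. These are descriptions over mice that share a library depth.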

How the data were processed

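RNA from bulk ACC tissue of 22 mice was amplified as full-length cDNA and sequenced. Per the labels and the study's methods, the authors used cutadapt 1.10 for trimming, STAR 2.5.3a for alignment to mm10 and HTSeq 0.6.1p1 to count uniquely aligned reads on each gene. They deposited whole-number counts without normalization, which were the only values used here. Columns deposited by the authors with counts divided by size factors (a signal) served no test, and those of the authors' own comparison (fold changes and p-values from DESeq2 1.22.1) were not used. The authors adjusted for RNA integrity and batch, which the labels do not give per sample, so neither was fitted. Whether the runs of library numbers are that batch was not tested.

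Groups and library numbers came from the labels. Each sample is a mouse of its own, so p-values measure the spread between mice. Counts were tested with edgeR 4.0.16 in R 4.3.3 (TMM, glmQLFit and glmQLFTest, group only) over the 17524 genes that reached 10 counts in 10 mice or more, and p-values were adjusted by Benjamini-Hochberg over all of them. Tests of single genes and relations were permutation tests on log2 CPM (prior count 2), exact for group differences within runs and for relations within groups, with 100000 resamples otherwise. Gene identifiers matched GENCODE M21 for 37772 of 37786. On simulated counts, the edgeR step was tested with genes changed by known folds before use. Alternatives were DESeq2 1.42.0 (size factors and Wald test), limma 3.58.1 voom, other count minimums, a prior count of 0.5, the run as covariate, each run alone, a replicate block and leaving out each mouse. The fits without control 3, 9 and 12, alone and within runs, the interaction without control 3 and relations within groups or without control 9 were added after seeing the data. Same-numbered mice of both groups deviated together with correlations from 0.28 to 0.63 where both were in the same run. For replicates 5 and 6, whose control and stimulated mice were in different runs, the correlations were -0.30 and -0.37. These values follow the runs and cannot tell whether the numbers pair mice, so the numbers were not taken to pair them. The member genes, lists and tests were chosen with earlier results of these data known. The genes named are the members, list genes with an adjusted p under 0.05 for the group difference or up to 4 per list with the smallest p, the 5 genes most like Ttr and Foxj1, and genes that overlap a member. A gene taken in by this rule is not reported here. The genes named as highest in control 3, 9 or 12 were chosen after their values were seen. Columns of other samples numbered 0.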

Additional observations from a re-analysis of the deposited data

Results flagged for a closer look

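Several levels stood far from the rest of their own group, measured as the gap to the nearest mouse over the range of the group in CPM (Dixon's ratio, 95% critical value). Of 40 groups tested within a run of library numbers, 10 had such a mouse, and of 10 groups of all stimulated mice 0 had one. The critical value would flag about 5% of groups by chance only if values were normally distributed. CPM need not be, above all for genes with few counts, so the rate by chance is not known here. The share of such groups over all genes was not taken. In library numbers 1 to 11, control 3 stood apart for Ttr (ratio 0.897), Folr1 (0.8) and Clic6 (0.626), and control 2 for Aqp1 (0.653). In library numbers 12 to 23, control 9 stood apart for Foxj1 (0.752), Ccdc153 (0.845), Tmem212 (0.864) and Aqp1 (0.656), control 12 for Ttr (0.626) and stimulated 5 for Clic6 (0.687). All of these mice were the highest of their group. The genes are not independent of each other, so the number of groups past the value counts some mice more than once.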

How the results depend on the processing

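Against 6 tested members lower in stimulated mice and 2 at an unadjusted p under 0.05 in edgeR, the counts were 10 and 5 without a minimum on counts (against 6.31% of all genes at that p), 3 and 1 with at least 10 counts in every mouse (3.04%), and 2 and 0 within library numbers 1 to 11 without control 3 (4.72%). The count at an unadjusted p under 0.05 was also 0 within 1 to 11, without control 3, 9 and 12, with the run and without those libraries, and with the replicate block over replicates 1 to 10 (7.37%). The block gave Kl 0.07 and Aqp1 0.07 on the log2 scale. Fold changes turned above 0 without control 3, 9 and 12 for Kl (0.18) and Aqp1 (0.48), with the run besides for Aqp1 (0.48) and Rarres2 (0.03), within 1 to 11 for Aqp1 (1.25) and Rarres2 (0.02), and there without control 3 for Ttr (0.50), Clic6 (0.40), Aqp1 (1.31) and Rarres2 (0.09). Leaving out each mouse moved Ttr from -2.09 to -0.98, Clic6 from -1.39 to -0.92, Foxj1 from -0.92 to -0.29, Kl from -0.32 to 0.06, Aqp1 from -0.38 to 0.35 and Rarres2 from -0.22 to -0.01. Differences of mean log2 CPM were above 0 within 1 to 11 for Ttr (0.07), Clic6 (0.16), Aqp1 (1.01), Otx2 (0.28), Tmem212 (0.40) and Rarres2 (0.07). The further choroid plexus list had 7 genes lower and 1 at an unadjusted p under 0.05 in edgeR (against 3.61% of all genes at that p). It gave 13 lower and 4 with no count minimum (6.31%), 4 and 0 with 10 counts in every mouse (3.04%), and 4 and 0 without control 3, 9 and 12 (2.27%). At that p it gave 2 with voom (10.6%), 2 with the run (11.5%), 3 with the block (7.37%) and 3 within 12 to 23 (12.4%). It gave 0 within 1 to 11 (5.56%), there without control 3 (4.72%), within 12 to 23 without control 9 and 12 (8.14%), and with the run but without the 3 libraries (8.42%). The ependymal and cilium list, with 15 lower and 3 at that p (3.61% of all genes), gave 8 and 1 with 10 counts in every mouse (3.04%), and 7 with voom (10.6%), 6 with the run (11.5%), 10 within 12 to 23 (12.4%), 7 there without control 9 and 12 (8.14%), and 6 with the run but without the 3 libraries (8.42%). Between runs, 5 members passed with no count minimum (36.3% of all genes) instead of 3 (68.1%), Ttr also passed there and with the DESeq2 Wald test (adjusted p = 0.0348 and 0.0477), and in stimulated mice alone Clic6 was at -0.68 and Aqp1 at -1.08, against 1.47 and 1.32 in controls alone. Of the 90 relations within runs, 4 passed the adjustment, against 17 of 45 after centring within runs, and 20 had an r of at least 0.6, against 12 without 2 mice. The cause of these changes was not tested. With DESeq2's size factors, the DESeq2 Wald test and voom, all 6 members tested stayed below 0, with Ttr and Clic6 at an unadjusted p under 0.05. The run as a covariate and the fit within 12 to 23 added Foxj1 (p = 0.0234 and 0.0261), as did 7 of the 22 fits without 1 mouse. After adjustment 0 members passed in each of these settings. Folr1, Otx2, Ccdc153 and Tmem212 are limited by their counts, with a median of 8.5 or fewer counts per library.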
